A study of Arabidopsis thaliana with 12 samples.

Results

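Genes of the Arabidopsis phosphate starvation response, 10 in number, were followed by gene identifier through 12 RNA sequencing libraries of whole seedlings. They make up 10 of the 21981 entries of the flg22 count table and 10 of the 27612 entries of the line count table, and every one of them was listed in both. The set holds the acid phosphatase gene PAP17, the regulators SPX1, SPX2 and SPX3, the phosphate transporter genes PHT1;1, PHT1;2 and PHT1;4, the noncoding RNA gene IPS1, and the lipid remodelling genes MGD3 and SQD2.

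The flg22 experiment holds 4 groups with 1 library each: cerk1 mutant seedlings given 100 nM flg22, cerk1 seedlings given sterile water (mock), wild-type seedlings given 100 nM flg22, and wild-type seedlings given sterile water. The second experiment holds 4 untreated lines with 2 libraries each, all in the cerk1 mutant and all carrying a FLAG-tagged CERK1 transgene driven by the CERK1 promoter (pCERK1). Their transgenes were CERK1_3A, CERK1_3D, CERK1_3E and unaltered CERK1, and the line with unaltered CERK1 is called CERK1_WT here. Seedlings were 10 days old in every group and had grown on MS medium at 0.5 strength with 0.5% sucrose, so no group was grown without phosphate. CERK1 is a LysM receptor kinase that perceives chitin, and flg22 is a peptide of bacterial flagellin perceived by the receptor kinase FLS2. The cerk1 library with flg22 was taken as cerk1 from its title, because its genotype label reads cerk2-/-. The labels do not give the duration of the flg22 treatment, the residues exchanged in the 3A, 3D and 3E transgenes, or the number of independent transformants behind a line. They also do not state whether replicate libraries of a line are separate cultures, and the p-values below reflect no more than the spread between those libraries, which may be technical.

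Depth ranged from 18159354 to 22663236 counts per library with the flg22 design and from 36013439 to 41288819 among the lines. CERK1 itself stood at 119 CPM (counts scaled to library size) in cerk1_flg22 and 9.70 CPM in cerk1_mock, against 273 CPM in WT_flg22 and 24.9 CPM in WT_mock. The mutant libraries were thus lower than their wild-type counterparts but not at 0. The 4 flg22-responsive genes FRK1, CYP81F2, WRKY40 and AT1G51890 summed to 1443.5 CPM in cerk1_flg22 and 4.98 CPM in cerk1_mock, against 1821 CPM in WT_flg22 and 9.12 CPM in WT_mock. Shoot and root markers were detected in every library, as the seedling label requires.

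Plants short of phosphate switch on a common set of genes through PHR1, a MYB-type transcription factor that binds the P1BS element. When phosphate is plentiful, SPX proteins bound to inositol pyrophosphates hold PHR1 away from DNA. The targets of PHR1 include transporters that take up phosphate, secreted phosphatases that release it from organic compounds, SPX genes that feed back on PHR1, IPS1, whose RNA sequesters miR399, and enzymes that replace phospholipids with galactolipids and sulfolipids. FLS2 signalling and phosphate supply are also known to meet in Arabidopsis, where PHR1 acts on the immune output of root tissue.

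The P1BS element, GNATATNC, reads the same on both strands, and its matches are shown because they are the sequence feature by which PHR1 targets are recognised. Positions and letters come from the RefSeq annotation of TAIR10.1, whereas the counts rest on TAIR10. In the window from 250 bases before to 50 bases after the annotated gene start, 4 of 10 genes held at least 1 match (SPX1, SPX3, PHT1;2 and PHT1;4), against 6.25% of 33052 genes. In the 1000 bases before the start, 6 of 10 held one (SPX1, SPX3, PHT1;1, PHT1;2, IPS1 and SQD2), against 20.1% of genes. PAP17, SPX2 and MGD3 held none in either window. A match is a description of the letters and not a bound site.

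SPX3 alone of the 10 genes has 2 matches in the shorter window, 213 and 90 bases before the start. Its promoter at chr2:18606160-18606409 (plus strand) is printed with the matches in capitals.
SPX3: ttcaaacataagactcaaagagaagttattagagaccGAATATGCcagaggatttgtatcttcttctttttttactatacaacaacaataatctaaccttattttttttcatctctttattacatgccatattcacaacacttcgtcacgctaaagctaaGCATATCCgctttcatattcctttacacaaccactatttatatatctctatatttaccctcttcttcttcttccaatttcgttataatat

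Matches of 5 other genes are printed with 10 bases on either side, in the gene's own direction and with the element in capitals, to let the variants be compared. They lie at chr3:3050397-3050458 (IPS1, plus strand), chr5:90440-90467 (SQD2, minus strand), chr5:17402909-17402954 (PHT1;1, minus strand), chr5:17415646-17415673 (PHT1;2, plus strand, the nearer of its 2) and chr2:16257140-16257167 (PHT1;4, plus strand).
IPS1: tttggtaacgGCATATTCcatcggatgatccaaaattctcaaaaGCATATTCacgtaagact
SQD2: tatgtgaagcGAATATTCattggaatag
PHT1;1: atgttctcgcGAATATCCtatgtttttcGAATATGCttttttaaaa
PHT1;2: atataaatatGGATATACccttaagatt
PHT1;4: ttgttcggaaGAATATACcgaagtagca
IPS1 carries the same element letters at both of its matches, 582 and 548 bases before the start. The pair of PHT1;1 lies 786 and 768 bases before its start, and the match of SQD2 340 bases before.

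IPS1 RNA pairs with miR399 but is not cut by it, because the pairing is interrupted at the centre. The mature miR399 sequences of the RefSeq annotation are shown with their seed (bases 2 to 8) in capitals, and the pairing sites of IPS1 (chr3:3051224-3051247) and of its relative AT4 (chr5:895149-895172) with the complement of that seed in capitals.
miR399a: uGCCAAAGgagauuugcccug
miR399b: uGCCAAAGgagaguugcccug
miR399d: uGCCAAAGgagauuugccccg
miR399e: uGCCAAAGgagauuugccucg
miR399f: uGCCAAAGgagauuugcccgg
IPS1 site: uugggcaacuucuaucCUUUGGCa
AT4 site: uugggcaacuucgaucCUUUGGCa
All 6 miR399 genes share 1 seed, and miR399c has the same mature sequence as miR399b. Each site is 24 bases long, against 21 bases of the miRNA.

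Levels are given as CPM scaled by TMM within each table, and a gene is counted as different in the flg22 experiment at 2-fold or more on CPM + 1. With 1 library per combination there is no replicate check and no p-value there. Single-gene folds are ratios of scaled counts with a 95% exact binomial interval, which covers counting error only. Of the 10 genes, 8 passed the filter of 1 CPM in at least 1 library, and IPS1 and PHT1;2 did not.

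In cerk1 seedlings, flg22-treated against mock, 4 of these 10 transcripts were at least 2-fold lower (PAP17, MGD3, SPX1 and SQD2) and 1 was at least 2-fold higher (PHT1;1). Across all genes tested, 5.38% were lower and 15.2% higher by that measure. In wild-type seedlings 2 of the 10 were at least 2-fold lower (PAP17 and MGD3) and 0 higher, where 5.79% of all genes were lower and 13.2% higher. The median log2 ratio of the 10 genes, with IPS1 and PHT1;2 included, was -0.50 in cerk1 and -0.33 in wild type. Over the genes that passed the filter the medians were -0.01 and -0.03. PAP17 and MGD3 carried the largest differences of the set in both genotypes, and PHT1;1 went the other way.

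**Figure D1:**
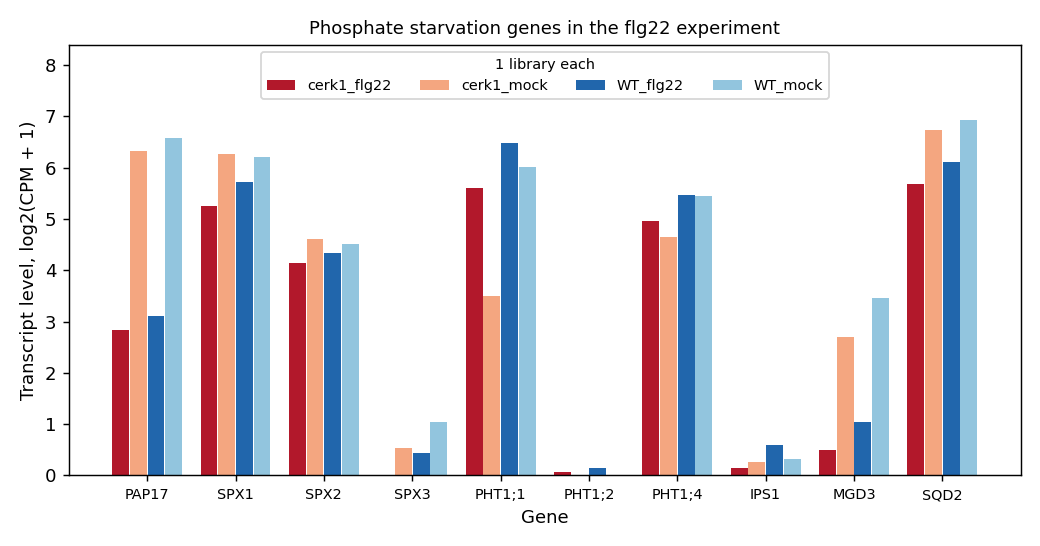
Levels of the 10 genes as log2(CPM + 1), 1 bar per library, in cerk1_flg22, cerk1_mock, WT_flg22 and WT_mock. PAP17 bars stand near 3 with flg22 and above 6 in mock libraries of both genotypes, and the cerk1_mock bar of PHT1;1 is the lowest of its 4. Bars of different genes are not scaled for length.

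PAP17 (AT3G17790, chr3:6089381-6091231, plus strand) encodes a purple acid phosphatase induced by phosphate shortage and by oxidative stress. Its level was 6.14 CPM in cerk1_flg22 and 79.7 CPM in cerk1_mock, and 7.66 CPM in WT_flg22 and 94.8 CPM in WT_mock. Both flg22 libraries were thus far below both mock libraries. The flg22 library was 12.97-fold lower than mock in cerk1 (interval 10.8 to 15.7) and 12.4-fold lower in wild type (10.5 to 14.7). The intervals of the 2 genotypes overlapped almost fully, and the responses differed by -0.03 on the log2 scale of CPM + 1 (cerk1 minus wild type). Between untreated replicate libraries of a line, PAP17 was at most 1.78-fold apart.

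MGD3 (AT2G11810, chr2:4743162-4746813, plus strand) encodes a monogalactosyldiacylglycerol synthase that supplies galactolipid for membranes outside the thylakoids. It had 8 counts in cerk1_flg22 and 110 in cerk1_mock (0.403 and 5.53 CPM), and 21 counts in WT_flg22 and 198 in WT_mock (1.05 and 9.98 CPM). The flg22 library was 13.7-fold lower than mock in cerk1 (6.73 to 32.6) and 9.49-fold lower in wild type (6.04 to 15.7). Replicate libraries of a line were at most 2.30-fold apart for this gene.

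SQD2 (AT5G01220, chr5:86543-90117, minus strand) encodes the enzyme that completes sulfoquinovosyldiacylglycerol, the sulfolipid that stands in for phospholipid. SQD2 stood at 50.1 CPM in cerk1_flg22 and 106 CPM in cerk1_mock, and at 68.1 CPM in WT_flg22 and 121 CPM in WT_mock. The order of the libraries was the same as for MGD3, with a narrower span. Flg22 libraries were lower than mock 2.12-fold in cerk1 (1.97 to 2.29) and 1.78-fold in wild type (1.66 to 1.90), beyond the largest replicate fold of 1.26 in the lines. That replicate spread comes from untreated seedlings of another experiment and is a guide only.

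SPX1 (AT5G20150, chr5:6802282-6803655, plus strand) encodes a phosphate-dependent inhibitor of PHR1 and is itself a PHR1 target. SPX1 was 36.9 CPM in cerk1_flg22 and 76.0 CPM in cerk1_mock, and 51.8 CPM in WT_flg22 and 72.8 CPM in WT_mock. The mock libraries of the 2 genotypes were close to each other and the cerk1_flg22 library was the lowest. The difference was 2.06-fold lower in cerk1 (1.88 to 2.25) and 1.41-fold lower in wild type (1.30 to 1.52). Only the cerk1 fold exceeded the largest replicate fold of 1.83 in the lines, and whether the genotypes differ could not be tested with 1 library each.

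SPX2 (AT2G26660, chr2:11338752-11340950, plus strand), a close relative of SPX1 that also inhibits PHR1, spanned a narrow range. It stood at 16.6 CPM in cerk1_flg22 and 23.3 CPM in cerk1_mock, and at 19.1 CPM in WT_flg22 and 21.7 CPM in WT_mock. The flg22 libraries were lower 1.41-fold in cerk1 (1.22 to 1.62) and 1.13-fold in wild type, where the interval of 0.985 to 1.30 includes no difference.

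SPX3 (AT2G45130, chr2:18606410-18607853, plus strand), a strongly starvation-induced member of the same family, was near the detection limit. It had 0 counts in cerk1_flg22 and 9 in cerk1_mock, and 7 counts in WT_flg22 and 21 in WT_mock. Against a floor of 3 counts in the library at 0, flg22 was at least 3.00-fold lower in cerk1, and it was 3.02-fold lower in wild type (1.24 to 8.41). Replicates of a line were up to 4.35-fold apart, so the wild-type fold was within that spread.

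IPS1 (AT3G09922, chr3:3050989-3051530, plus strand) had 2 counts in cerk1_flg22 and 4 in cerk1_mock, and 10 counts in WT_flg22 and 5 in WT_mock. The count ratios pointed in opposite directions, -0.998 in cerk1 and 0.990 in wild type on the log2 scale, and both intervals include no difference. No response of IPS1 to flg22 was detectable at this depth.

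**Figure D2:**
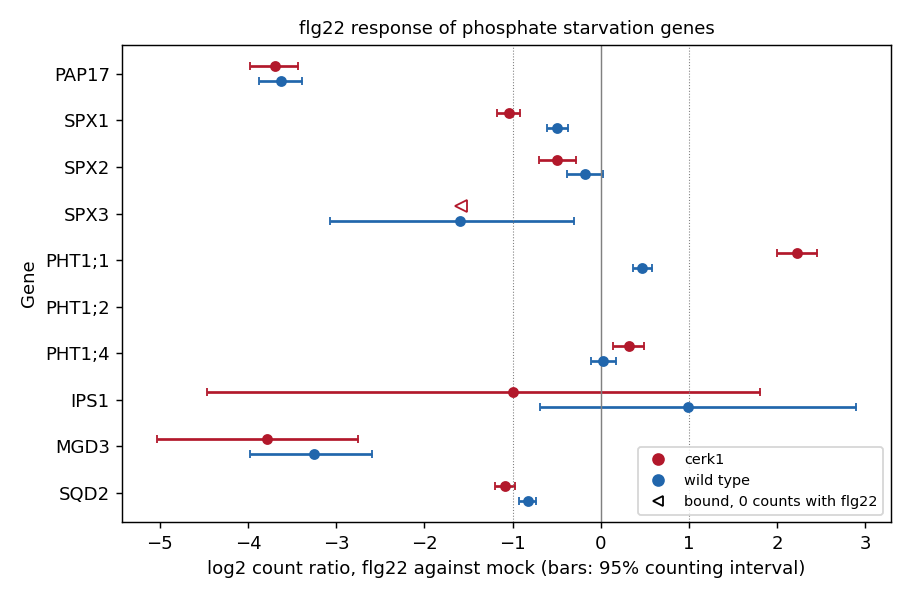
Log2 count ratio of flg22 against mock for each gene, cerk1 in red and wild type in blue, with bars for the 95% counting interval and dotted lines at 2-fold. PAP17 and MGD3 lie beyond -3 in both genotypes, PHT1;1 in cerk1 lies at 2.22, the open triangle for SPX3 in cerk1 is a bound (lower or equal), and PHT1;2 has too few counts for a ratio.

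PHT1;1 (AT5G43350, chr5:17399769-17402158, minus strand) encodes a high-affinity phosphate transporter known chiefly from the root epidermis and root hairs. PHT1;1 was 47.9 CPM in cerk1_flg22 and 10.3 CPM in cerk1_mock, and 88.2 CPM in WT_flg22 and 63.6 CPM in WT_mock. The cerk1_mock library alone stood far below the other 3. The flg22 library was 4.67-fold higher than mock in cerk1 (4.01 to 5.46) and 1.39-fold higher in wild type (1.29 to 1.49). The wild-type fold was within the largest replicate fold of 1.84 in the lines, and the cerk1 fold was beyond it. The cerk1 response exceeded that of wild type by 1.65 on the log2 scale of CPM + 1, the largest such difference among the 10 genes, and it rests on the cerk1_mock library.

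The 7 root hair markers EXPA7, EXPA18, RHD2, COBL9, PRP3, LRX1 and RSL4 were low in the same library. Their summed level was 61.3 CPM in cerk1_flg22 and 13.4 CPM in cerk1_mock, and 83.7 CPM in WT_flg22 and 129 CPM in WT_mock. All 7 were at least 2-fold lower in cerk1_mock than in WT_mock, and none was at 0 in any library. The 8 endodermis markers summed to 56.5 CPM in cerk1_flg22 and 41.3 CPM in cerk1_mock, and to 59.3 CPM in WT_flg22 and 96.6 CPM in WT_mock. The part of root content in the PHT1;1 values was not tested, and in whole seedlings fewer cells of a type and less RNA per cell cannot be told apart. The summed level of the 7 shoot markers, to which photosynthesis genes give nearly all counts, lay between 27319 CPM in cerk1_flg22 and 34812 CPM in cerk1_mock. The remaining marker, STOMAGEN, was 5.60-fold lower with flg22 in cerk1 (3.91 to 8.23) and 3.85-fold lower in wild type (2.69 to 5.62).

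**Figure D3:**
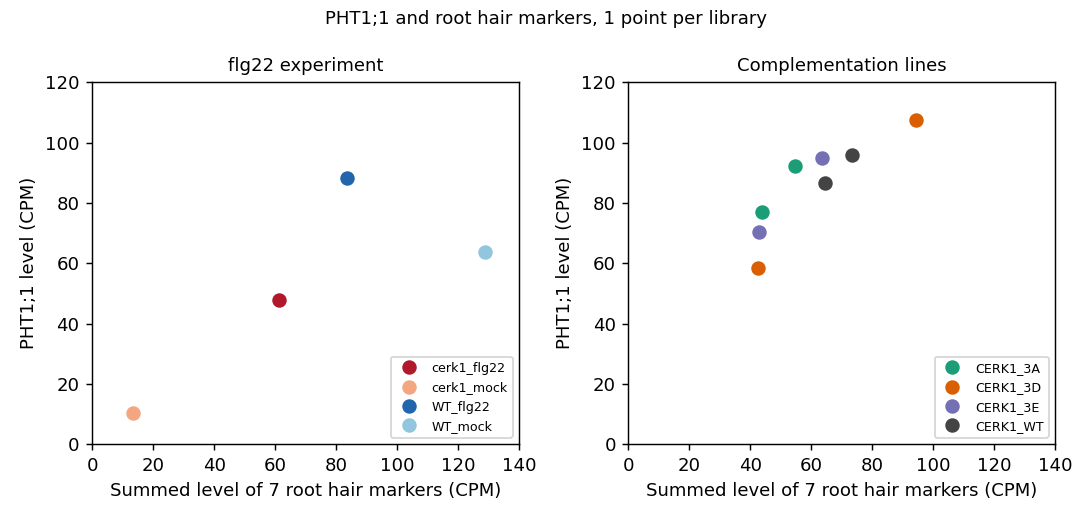
PHT1;1 level in CPM against the summed level of 7 root hair markers in CPM, 1 point per library, for the flg22 experiment (left) and the complementation lines (right). The cerk1_mock library lies at the lower left, at 10.3 CPM of PHT1;1 and 13.4 CPM of markers, and replicate 1 of CERK1_3D at the upper right of its panel, at 107 and 94.4 CPM. Other points depart from this order. WT_mock lies at 63.6 CPM of PHT1;1 and 129 CPM of markers, WT_flg22 at 88.2 and 83.7 CPM, and replicate 2 of CERK1_3A at 92.2 and 54.7 CPM.

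PHT1;4 (AT2G38940, chr2:16257157-16260253, plus strand), the other main uptake transporter of roots, was 30.1 CPM in cerk1_flg22 and 24.1 CPM in cerk1_mock, and 43.5 CPM in WT_flg22 and 42.6 CPM in WT_mock. The genotypes were further apart than the treatments. The flg22 library was 1.25-fold higher than mock in cerk1 (1.10 to 1.41) and 1.02-fold higher in wild type (0.927 to 1.12). Under scaling by library total the wild-type value changed sign.

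PHT1;2 (AT5G43370, chr5:17415698-17417972, plus strand), a near copy of PHT1;1, had 1 count in cerk1_flg22, 0 in cerk1_mock, 2 in WT_flg22 and 0 in WT_mock, and no fold was formed. In the lines it had 29 to 154 counts per library. The coding sequences of PHT1;1 and PHT1;2 were 97.71% identical with an identical stretch of 404 bases, so the division of reads between them is uncertain. The 2 tables also state different lengths for PHT1;2, 1624 bases in the flg22 experiment and 6288 in the lines, and no level was compared between the tables. The length of 6288 bases exceeds the annotated span of the gene given above. The line counts may therefore not be those of PHT1;2 alone.

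In mock-treated seedlings, cerk1 against wild type, 1 of these 10 transcripts was at least 2-fold lower (PHT1;1) and 0 were higher, where 4.01% of all genes were lower and 0.302% higher. PHT1;1 was 6.21-fold lower in cerk1_mock than in WT_mock (5.35 to 7.23). MGD3 was 1.81-fold lower (1.42 to 2.30) and PHT1;4 1.77-fold lower (1.58 to 1.98), both within the replicate folds of 2.30 and 2.18 seen in the lines. PAP17 was 1.19-fold lower (1.11 to 1.27) and SQD2 1.14-fold lower (1.07 to 1.21), within their largest replicate folds of 1.78 and 1.26. SPX3 was 2.34-fold lower (1.03 to 5.80) from 9 counts in cerk1_mock and 21 in WT_mock, within its largest replicate fold of 4.35. The intervals of SPX1 and SPX2 include no difference, and the median log2 ratio of the 10 genes was -0.22.

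With flg22, cerk1 against wild type, 0 of these 10 transcripts were at least 2-fold lower or higher, where 0.97% of all genes were lower and 0.641% higher. The log2 ratio of CPM + 1 lay below 0 for all 10, including IPS1 (2 counts in cerk1_flg22 and 10 in WT_flg22) and PHT1;2 (1 and 2 counts), which did not pass the filter. Of the 18872 genes that passed it, 50.56% lay below 0. The median of the 10 was -0.44, against -0.01 over the genes that passed. Between replicates of the same untreated line, 0 of 10 genes were higher in replicate 1 for CERK1_3A and 9 of 10 for CERK1_3D. A shared direction across the set was thus also seen between libraries of the same genotype and treatment. PHT1;1 was 1.84-fold lower in cerk1_flg22 than in WT_flg22 (1.70 to 1.996), level with its largest replicate fold of 1.84 in the lines. PHT1;4 was 1.44-fold lower (1.30 to 1.61) and SPX1 1.403-fold lower (1.28 to 1.54), within their largest replicate folds of 2.18 and 1.83. SQD2 was 1.36-fold lower (1.25 to 1.48), beyond its largest replicate fold of 1.26. MGD3 was 2.61-fold lower (1.11 to 6.82) from 8 counts in cerk1_flg22 and 21 in WT_flg22, with replicates up to 2.30-fold apart. These 4 comparisons share libraries pairwise, so their values are not independent of each other.

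Per kilobase of the stated length, SPX1 (67.0 CPM per kb), PAP17 (66.1) and SQD2 (61.8) were the most abundant of the 10 transcripts in WT_mock. PHT1;1 (35.7 CPM per kb), PHT1;4 (22.4) and SPX2 (19.5) followed, and MGD3 (6.20), SPX3 (1.16) and IPS1 (0.465) were scarce. In WT_flg22 PAP17 stood at 5.34 CPM per kb, below SPX2 at 17.2 CPM per kb. The places of SPX1, SPX2 and MGD3 depend on the gene model, because their stated lengths are 1086, 1111 and 1611 bases in the flg22 experiment and 2251, 2646 and 3202 bases in the lines.

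The second experiment asked whether untreated lines that differ in their CERK1 transgene differ in these genes. Mean CERK1 levels were 76.7 CPM in CERK1_3A, 118 CPM in CERK1_3D, 121 CPM in CERK1_3E and 56.8 CPM in CERK1_WT. The form of the transgene and the level of CERK1 can therefore not be told apart in these lines. None of the 10 rose or fell in any of the 6 comparisons between lines (edgeR's quasi-likelihood test, two-sided, Benjamini-Hochberg adjusted p under 0.05 over 21274 genes), and 0 had an unadjusted p under 0.05. DESeq2 also called 0, with 3 genes at an unadjusted p under 0.05 in CERK1_3E against CERK1_3D. The share of all genes called was 0.0047% for CERK1_3A, 0.0282% for CERK1_3D (0.0188% higher) and 0.0047% for CERK1_3E, each against CERK1_WT. It was 0.0235% for CERK1_3D against CERK1_3A (0.0188% higher), 0.0094% for CERK1_3E against CERK1_3A and 0.0141% for CERK1_3E against CERK1_3D, so few calls were made anywhere.

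PAP17 in the lines had 23.8 and 33.8 CPM in CERK1_3A, 48.5 and 27.3 CPM in CERK1_3D, 25.6 and 23.9 CPM in CERK1_3E, and 39.1 and 22.6 CPM in CERK1_WT (replicates 1 and 2). The means were 28.8 ± 7.02, 37.9 ± 15.0, 24.7 ± 1.18 and 30.9 ± 11.6 CPM in that order of lines (SD, n = 2 each). Both libraries of CERK1_3D were above both of CERK1_3E, and every line overlapped with CERK1_WT. CERK1_3E was lower than CERK1_3D by a log2 fold change of -0.62 (SE 0.33, adjusted p = 0.999, edgeR), which was not significant. Without replicate 1 of CERK1_3D that value was -0.14, and without replicate 2 it was -0.97.

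SPX1 had 9.67 and 17.7 CPM in CERK1_3A, 22.3 and 14.2 CPM in CERK1_3D, 11.4 and 11.6 CPM in CERK1_3E, and 16.3 and 12.4 CPM in CERK1_WT. The CERK1_3E libraries were below both CERK1_3D and both CERK1_WT libraries. The log2 fold change of CERK1_3E against CERK1_3D was -0.67 (SE 0.31, adjusted p = 0.999, edgeR), and it was -0.30 without replicate 1 of CERK1_3D and -0.95 without replicate 2. SPX2 varied less, from 11.6 to 16.5 CPM over the 8 libraries, and SPX3 ranged from 0.413 to 1.80 CPM, with both of these extremes in CERK1_3D.

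SQD2 was the most even of the set. It had 59.1 and 74.6 CPM in CERK1_3A, 80.9 and 75.3 CPM in CERK1_3D, 59.4 and 68.4 CPM in CERK1_3E, and 71.4 and 78.1 CPM in CERK1_WT. CERK1_3E was below CERK1_3D and CERK1_WT in both libraries. The log2 fold change of CERK1_3E against CERK1_3D was -0.29 (SE 0.13, 95% interval -0.59 to 0.01, adjusted p = 0.999, edgeR), with the smallest unadjusted p of any of the 10 genes, 0.0548. MGD3, at 1.29 to 4.24 CPM, had its lowest library in CERK1_3A and its highest in CERK1_3D.

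PHT1;1 had 77.1 and 92.2 CPM in CERK1_3A, 107 and 58.4 CPM in CERK1_3D, 94.9 and 70.3 CPM in CERK1_3E, and 96.0 and 86.7 CPM in CERK1_WT. The line means lay within 1.11-fold of each other, and the span of the set came from the 2 CERK1_3D libraries. Over the 6 comparisons its log2 fold changes ran from -0.14 to -0.01 and their 95% intervals stayed between -0.76 and 0.61. The lines include neither cerk1 without a transgene nor wild type, so these intervals do not bear on the 6.21-fold gap between the mock libraries. PHT1;4 ranged from 17.3 to 37.8 CPM, and again both extremes belonged to CERK1_3D.

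IPS1 had 0.607 and 2.79 CPM in CERK1_3A, 5.09 and 1.49 CPM in CERK1_3D, 1.30 and 2.24 CPM in CERK1_3E, and 2.74 and 1.76 CPM in CERK1_WT. Replicates were up to 4.59-fold apart, in CERK1_3A, and the 95% intervals of its log2 fold changes reached from -2.63 to 2.70. The counts listed for PHT1;2, which may not be of that gene alone, were the least stable. They stood at 0.686 and 4.16 CPM in the 2 CERK1_WT libraries, 6.07-fold apart. For these 2 genes the lines give no useful limit on a difference.

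The 10 genes were further apart between replicates, at the median, than genes in general. The median fold between the 2 libraries of a line was 1.55 in CERK1_3A, 1.81 in CERK1_3D, 1.23 in CERK1_3E and 1.48 in CERK1_WT, where the median over 19101 genes with a mean of at least 1 CPM was 1.10, 1.15, 1.10 and 1.11 in that order of lines. At least 2-fold apart were 3 of 10 in CERK1_3A, 4 in CERK1_3D, 1 in CERK1_3E and 1 in CERK1_WT, where 2.04%, 4.08%, 2.30% and 2.23% of all genes were. Of these cases PHT1;2 gave 3, IPS1 and MGD3 2 each, and SPX3 and PHT1;4 1 each, so all but that of PHT1;4 came from genes below 3 CPM on average. SPX3, at 0.946 CPM on average, would not itself have entered the comparison set of 19101 genes. In CERK1_3A 0 of 10 were higher in replicate 1, in CERK1_3D 9 of 10, in CERK1_3E 5 of 10 and in CERK1_WT 6 of 10. Over all genes the share higher in replicate 1 was 49.1% in CERK1_3A, 50.2% in CERK1_3D, 50.2% in CERK1_3E and 50.9% in CERK1_WT.

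Root markers differed between the same libraries. The 7 root hair markers summed to 44.0 and 54.7 CPM in CERK1_3A, 94.4 and 42.4 CPM in CERK1_3D, 63.6 and 42.8 CPM in CERK1_3E, and 73.5 and 64.4 CPM in CERK1_WT. The 8 endodermis markers summed to 74.4 and 78.2 CPM in CERK1_3A, 104 and 53.4 CPM in CERK1_3D, 84.3 and 56.9 CPM in CERK1_3E, and 70.4 and 100.2 CPM in CERK1_WT. Replicate 1 of CERK1_3D was thus the highest library for PAP17, SPX1, SPX3, PHT1;1, PHT1;4, IPS1, MGD3, SQD2 and both marker sums. The part of root content in the spread was not tested.

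**Figure D4:**
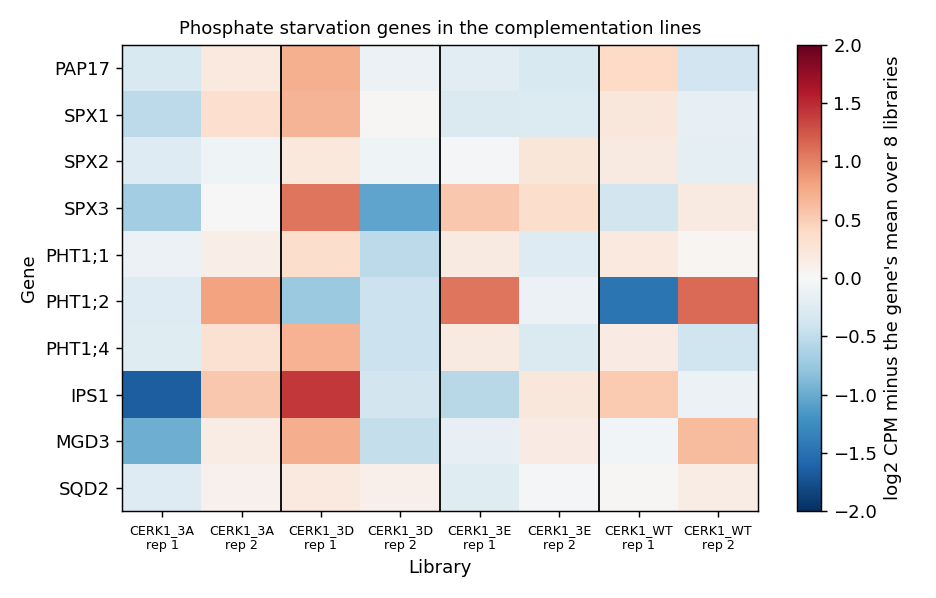
Log2 CPM of each gene in the 8 libraries of the complementation lines, minus the gene's mean over them. Replicate 1 of CERK1_3D is above the mean for 9 of 10 genes, replicate 1 of CERK1_3A is below it for 10 of 10, and no line stands apart in both of its libraries across the set.

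Per kilobase, PHT1;1 was the most abundant of the 10 in the lines, with a median of 50.2 CPM per kb over 8 libraries (32.8 to 60.3), followed by SQD2 at 37.3 (30.2 to 41.3) and PAP17 at 18.4 (15.8 to 33.8). PHT1;4, SPX1, SPX2, IPS1, SPX3, MGD3 and PHT1;2 followed in that order, down to 0.265 CPM per kb. The places of SPX1, SPX2, MGD3 and PHT1;2 rest on the longer gene models of this table. For SPX1, SPX2 and PHT1;2 the stated length exceeds the annotated span of the gene. Each gene's range over the 8 libraries overlapped with that of the next in the order. Within every library, however, SQD2 stood above PAP17 and PAP17 above PHT1;4. PHT1;1 was below SQD2 in replicate 2 of CERK1_3D (32.8 and 38.5 CPM per kb), so that step did not hold in every library.

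Other genes of phosphate homeostasis were examined as 5 lists. List counts include genes below the filter of 1 CPM, whereas shares of all genes for flg22 cover only genes that passed it. In the lipid remodelling list, flg22 libraries were lower by 2-fold or more for 4 of 10 genes in cerk1 and 3 of 10 in wild type, with 0 higher in either genotype and medians of -0.67 and -0.74 on the log2 scale. Over all genes 5.38% were lower in cerk1 and 5.79% in wild type. MGD2, the sister of MGD3, was 6.25-fold lower in cerk1 (4.15 to 9.76) and 4.03-fold lower in wild type (2.82 to 5.88). PLDZ2, a phospholipase D that breaks down phospholipid under starvation, was 3.02-fold lower in cerk1 (2.14 to 4.33) and 4.17-fold lower in wild type (3.20 to 5.51). DGD1, which makes digalactolipid, was 2.61-fold lower in cerk1 (2.29 to 2.99) and 2.94-fold lower in wild type (2.58 to 3.35). SQD1, which acts before SQD2 in sulfolipid synthesis, was 2.34-fold lower in cerk1 (2.22 to 2.48) and 1.86-fold lower in wild type (1.78 to 1.95). In the window from 250 bases before to 50 after the start, the P1BS letters were held by 7 of 10 genes of the lipid list, 3 of 7 of the phosphatase list, 1 of 11 of the signalling list, 1 of 11 of the transport list and 1 of 10 of the list of links to immunity, against 6.25% of all genes.

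In the signalling list, 2 of 11 were at least 2-fold higher in each genotype and 0 lower, a share near that of all genes (15.2% higher in cerk1 and 13.2% in wild type). NLA, a ubiquitin ligase that sends PHT1 transporters to degradation, was 2.56-fold higher in cerk1 (2.20 to 3.00) and 3.21-fold higher in wild type (2.72 to 3.81). LPR2, a ferroxidase-like protein of the root's local phosphate response, was 2.14-fold higher in cerk1 (1.93 to 2.38) and 2.34-fold higher in wild type (2.13 to 2.57). PHR1 itself stayed under the 2-fold mark at 1.60-fold higher in cerk1 and 1.96-fold higher in wild type, and PHO2, the target of miR399, was 1.45-fold lower in cerk1 and 1.96-fold lower in wild type.

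In the transport list, 1 of 10 measured genes was at least 2-fold lower in each genotype. That gene was G3Pp1, a glycerol-3-phosphate permease gene known to respond to phosphate, at 2.94-fold lower in cerk1 (2.62 to 3.30) and 2.65-fold lower in wild type (2.41 to 2.92). PHT1;9, another PHT1 transporter, was the 1 gene at least 2-fold higher in wild type, from 36 counts in WT_flg22 against 3 in WT_mock. In cerk1 it was 3.29-fold higher (1.37 to 9.08) from 23 counts with flg22 and 7 in mock, under the 2-fold mark on CPM + 1. In the phosphatase list, 1 of 7 was at least 2-fold lower in each genotype, PPsPase1, a pyrophosphatase, at 3.91-fold in cerk1 (2.48 to 6.40) and 2.39-fold in wild type (1.87 to 3.07). RNS1, a ribonuclease that frees phosphate from RNA, and PEPC1, a phosphoethanolamine phosphatase, were at least 2-fold higher in cerk1, at 6.51-fold (3.07 to 15.9) and 4.51-fold (2.06 to 11.2). Each of these folds rests on 8 counts in cerk1_mock. In wild type RNS1 was 2.48-fold lower (1.26 to 5.14) from 13 counts with flg22 and 32 in mock, under the 2-fold mark on CPM + 1. PEPC1 was 2.23-fold higher in wild type (1.42 to 3.58) from 65 counts with flg22 and 29 in mock, also under that mark.

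The list of regulators, kinases and a peptide that link phosphate supply with immunity had mostly higher values with flg22. Of 9 measured, 5 were at least 2-fold higher and 1 lower in each genotype. Over all genes 15.2% were higher and 5.38% lower in cerk1, and 13.2% higher and 5.79% lower in wild type. WRKY6, a repressor of the phosphate exporter gene PHO1, was 50.8-fold higher in cerk1 (43.9 to 59.1) and 26.2-fold higher in wild type (23.8 to 28.9). WRKY75, an activator of starvation genes, was 26.9-fold higher in cerk1 (15.5 to 51.0) and 3.19-fold higher in wild type (2.08 to 5.01). ZAT6, a zinc finger factor of root growth and phosphate homeostasis, was 15.99-fold higher in cerk1 (12.4 to 20.97) and 11.7-fold higher in wild type (9.25 to 14.99). The receptor-like cytoplasmic kinase BIK1, which relays FLS2 signals, was 9.72-fold higher in cerk1 (8.89 to 10.6) and 10.7-fold higher in wild type (9.75 to 11.7). Its close relative PBL1 was 3.59-fold higher in cerk1 (3.28 to 3.94) and 4.01-fold higher in wild type (3.66 to 4.403). RALF23, a peptide perceived by the receptor kinase FER, was the gene that was lower, 2.76-fold in both genotypes. In the lines, none of the genes in these 5 lists was called in any comparison.

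**Figure D5:**
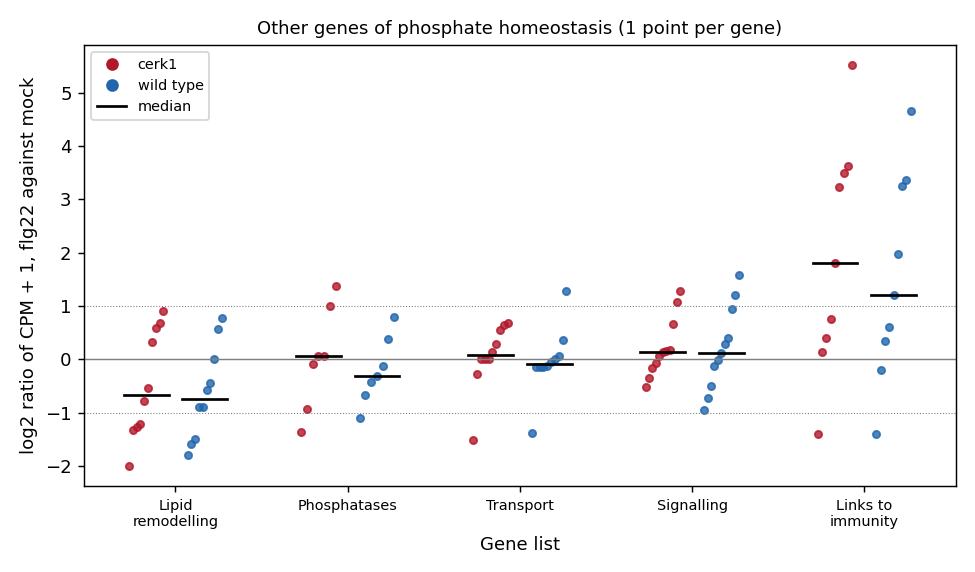
Log2 ratio of CPM + 1, flg22 against mock, for the genes of 5 lists of phosphate homeostasis, 1 point per gene, cerk1 (red) left of wild type (blue), with medians as black lines and dotted lines at 2-fold. The lipid remodelling medians lie at -0.67 and -0.74 and those of the links to immunity at 1.81 and 1.20.

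In the comparison of genotypes, 3 of the 47 measured genes of the 5 lists (6.38%) were at least 2-fold lower in cerk1 in mock, against 4.01% of all genes. With flg22, 1 (2.13%) was lower and 2 (4.26%) were higher, against 0.97% and 0.641% of all genes. The 47 include genes below the filter of 1 CPM, whereas the shares of all genes are over the 18872 that passed it. In mock, cerk1 was at least 2-fold lower than wild type for 1 gene each of the transport, phosphatase and immunity lists and for 0 genes of the signalling and lipid lists. They were PHO1;H1, a relative of the phosphate exporter gene PHO1 (2.24-fold, 1.89 to 2.65), PPsPase1 (2.38-fold, 1.86 to 3.06) and WRKY6 (2.30-fold, 1.93 to 2.75). With flg22, PPsPase1 was 3.90-fold lower in cerk1 (2.47 to 6.38), RNS1 was 4.02-fold higher (2.16 to 8.05) and 1 gene of the immunity list was higher. The last was WRKY75, at 17.6 CPM in cerk1_flg22 against 4.66 CPM in WT_flg22, a 3.77-fold difference (2.99 to 4.79).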

How the data were processed

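The authors deposited whole-number counts per gene, not normalized, for 12 libraries in 2 tables. Reads were placed on TAIR10 per the submitters' processing notes. The aligner, counter and strand setting are not given in the sources used here. All sample columns were used. The 10 genes and the lists were chosen with earlier results of these data known.

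In each table, library totals were scaled by TMM (edgeR 4.0.16, R 4.3.3) to give CPM. In the flg22 experiment 18872 genes reached a CPM of 1 in some library. Ratios there were formed on CPM + 1 and counted at 2-fold, and single-gene folds are ratios of scaled counts with exact binomial intervals (SciPy 1.17.1). A count of 0 was set to a floor of 3 counts. Reads carry no molecular identifiers, so intervals and floors cover counting error only. The 8 line libraries were fitted together by edgeR's quasi-likelihood method, with line as the only term after filterByExpr, which kept 21274 genes. It had 4 residual degrees of freedom and a biological coefficient of variation of 0.170, and it was tested on simulated data. Replicates of a line correlated at r = 0.984 to 0.990 on log2(CPM + 1) and differed beyond sampling noise. All 10 genes were named. In the other lists, up to 4 genes at least 2-fold different were named in each unreplicated comparison, largest first, and in the lines those called. PHR1, PHO2, RALF23 and the wild-type values of RNS1 and PEPC1 were named after their values were seen. Alternatives were other scaling, added values, filters, fold thresholds, DESeq2 1.42.0, a replicate block and leaving out each library. Sequences were read from TAIR10.1 with Biopython 1.88.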

Additional observations from a re-analysis of the deposited data

Results flagged for a closer look

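The IPS1 count ratios of flg22 against mock had opposite signs in the 2 genotypes, -0.998 in cerk1 and 0.990 in wild type on the log2 scale. Both 95% intervals include no difference, with ratios of 0.0453 to 3.49 in cerk1 and 0.619 to 7.41 in wild type. The difference between genotypes was not tested, and the ratios rest on 2 counts in cerk1_flg22, 4 in cerk1_mock, 10 in WT_flg22 and 5 in WT_mock.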

How the results depend on the processing

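In the flg22 experiment, the number of genes of the set at least 2-fold lower in cerk1 with flg22 was 4, and 2 with CPM + 5 or at a 4-fold threshold. With CPM + 0.1, 2 genes were lower in cerk1 than in wild type in mock (1 with CPM + 1) and 2 with flg22 (0 with CPM + 1). Scaling by library total moved the median log2 ratio with flg22, over the genes that passed the filter, to -0.17 in cerk1 and -0.28 in wild type. The other counts stayed within 1.5-fold under these alternatives. In the lines, 0 of the 10 genes were called under any of 13 alternatives, and leaving out each library in turn gave 0 to 0. Replicate differences correlated between lines at r = -0.00 to 0.23, over 0.1 in 4 of 6 pairs of lines. As this did not hold for every pair, the numbers were not taken to pair the libraries, and with a replicate block 0 of the 10 were called. Low counts limit SPX3, IPS1 and PHT1;2 in the flg22 experiment, and 1 library per combination leaves no replicate check there.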

Other observations

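Over the 12 libraries, with log2(CPM + 1) centred within each table, the profiles most like the median of the 10 genes among 17416 ranked genes were those of SCPL49 (r = 0.92), WRKY57 (0.91), FLS1 (0.91), AT5G38380 (0.91) and AT4G16190 (0.90). These correlations describe 12 libraries that share 2 experiments and whole-seedling RNA. Within the set, SPX1 (r = 0.87) and SPX3 (0.84) were closest to the median, and PHT1;1 (0.15) and PHT1;2 (-0.19) were furthest from it. Each gene of the set contributes to that median, so these values are not comparable with those of the genes outside the set.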
